A study of Homo sapiens with 3 samples.

Results

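This report describes 42 genes of G2 and mitosis, taken by name as mitotic cyclins, kinases, spindle checkpoint proteins, kinesins, kinetochore proteins and cytokinesis proteins, in H1975 cells given small interfering RNAs (siRNAs) against HHLA3. Of the 42 names, 40 were found among the 16662 genes listed for the 3 libraries, and all 40 passed a filter of a mean of at least 1 CPM (CPM give a gene's reads relative to library size, here adjusted with TMM factors). The other 2, PRC1 and NUSAP1, were not analysed here. Every group was the same established EGFR-mutant human lung adenocarcinoma line, grown in medium with 10% serum. The cells were transfected at about 70% confluency with a control siRNA (siNC), siHHLA3-1 or siHHLA3-3, kept for 6 h without serum and then for 24 h with 10% serum. Each siRNA gave 1 library of total RNA, and the labels do not call the differently numbered HHLA3 siRNAs replicates, so each was its own group and no difference has a replicate check. A separate batch label is attached to each library, which means that an effect of the siRNA and one of the batch cannot be told apart. All intervals are 95% intervals for counting error only.

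Cells pass from G2 into mitosis when CDK1, bound to A- and B-type cyclins, outweighs the kinases that hold it inactive. The spindle is then built by motor proteins and microtubule-bundling factors, the checkpoint at the kinetochores holds back the anaphase-promoting complex (APC/C) until the chromosomes are attached, and CDC20 then directs the APC/C to securin and cyclin B. Most of these genes are transcribed late in the cell cycle by the MuvB complex with B-MYB (MYBL2) and FOXM1, which reaches the promoter at the cell cycle genes homology region (CHR), with the factor NF-Y bound at nearby CCAAT boxes. Their mRNAs are therefore low in cells that do not cycle, and they are widely read as a proliferation signature in lung adenocarcinoma. In RNA from a whole culture, fewer cells in G2 and M and less mRNA in each such cell cannot be told apart.

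The promoter letters are shown first because most of the matched members hold them. The members were taken by name, but they are classical CHR and CCAAT genes, so high shares are a description and not an independent result. RefSeq promoters on GRCh38.p14, from 250 bases before to 50 after the annotated start, were matched by symbol for 33 members. No entry was matched for FOXM1, AURKA, BIRC5, BUB3, TTK, UBE2C and TPX2. A CHR hexamer, TTTGAA or TTCGAA on either strand (TTCGAA reads the same on both), was present in 24 of the 33 (72.7%) and in 16.6% of all 27305 promoters in the table. CCAAT, on either strand, was present in 26 of 33 (78.8%) and in 35.7% of all promoters. Both were present in 20 of 33 (60.6%), against 6.58%. The windows below give 30 bases of promoters of some members with a hexamer, in lower case with the hexamer in capitals.
CDC20 (chr1:43358904-43358933, plus strand): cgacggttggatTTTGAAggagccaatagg
PLK1 (chr16:23678848-23678877, plus strand): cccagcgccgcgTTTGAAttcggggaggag
CCNB2 (chr15:59105105-59105134, plus strand): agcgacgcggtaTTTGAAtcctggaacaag
KIF4A (chrX:70290058-70290087, plus strand): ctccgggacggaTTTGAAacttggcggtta
HMMR (chr5:163460592-163460621, plus strand): aatgtggggagaTTTGAAtttgaaaccggt
MKI67 (chr10:128126435-128126464, minus strand): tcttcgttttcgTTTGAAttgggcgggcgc

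The hexamers shown began 29 bases before the start in PLK1, in CCNB2 and in MKI67, 28 in HMMR, 34 in KIF4A and 65 in CDC20. HMMR holds a further copy directly after the first, and in MKI67 the last A of the hexamer is also the first base of a CCAAT box on the other strand (ATTGG). CCNB2 had CCAAT at 244, 120, 87 and 54 bases before the start, all upstream of its hexamer. After the positions were seen, a CCAAT box beginning 20 to 40 bases before a hexamer was counted, and 11 of 33 members (33.3%) and 0.736% of all promoters held one. These are matches of letters and not measured sites.

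Cyclin A2 (CCNA2), cyclin B1 (CCNB1), KIF20A and NEK2 were among the members that held CCAAT but neither hexamer in this window. Their CCAAT boxes are given in capitals, as CCAAT or, on the other strand, ATTGG.
CCNA2 (chr4:121823922-121823951, minus strand): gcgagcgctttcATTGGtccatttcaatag
CCNB1 (chr5:69167083-69167112, plus strand): gccacgaacaggCCAATaaggagggagcag
KIF20A (chr5:138179033-138179062, plus strand): cttccctatctgATTGGccgaacgaacgca
NEK2 (chr1:211675638-211675667, minus strand): gcccaccgcctgCCAATagactgcgagatc
The absence of the hexamer says only that these letters are not in the window searched. CDC25C, KIF2C and CENPE held neither motif.

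**Figure D1:**
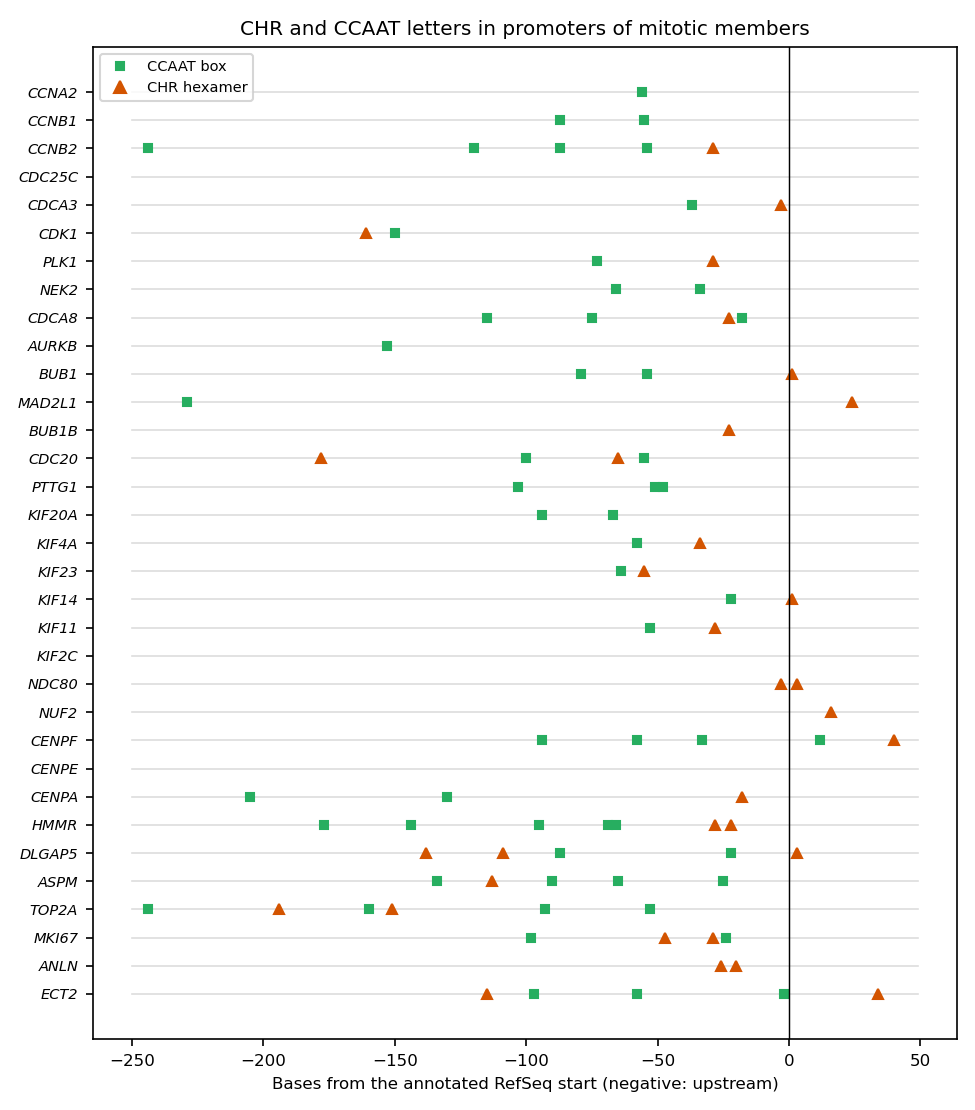
Positions of CHR hexamers (triangles) and CCAAT boxes (squares) on the x axis, in bases from the annotated RefSeq start, for the 33 members with a promoter entry (rows). Most matches lie within 150 bases upstream of the start, and CDC25C, KIF2C and CENPE have none.

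The libraries held 26950852 to 35069930 reads. The targeted gene, HHLA3, had 5.99 CPM in the siNC library and 1.55 and 0.735 CPM in those of siHHLA3-1 and siHHLA3-3. These levels rest on 192, 55 and 20 counts. As ratios to siNC they were 0.259 (0.188 to 0.351) and 0.123 (0.0733 to 0.195). HHLA3 was thus 2.11-fold higher (1.24 to 3.71) with siHHLA3-1 than with siHHLA3-3. Of 12 lung and epithelial markers, 9 were listed, among them the keratins KRT7, KRT8, KRT18 and KRT19 and the lung factor NKX2-1. NAPSA, SFTPB, SFTPC, SFTPA1, EPCAM, CDH1 and MUC1 were also searched, and some of these were not listed. The 9 had summed levels of 5338, 5042 and 4190 CPM in the same order, which hide single genes. Their log2 ratios to siNC ran from -0.24 to 1.15 with siHHLA3-1 and from -0.89 to 0.69 with siHHLA3-3. Of the markers of other cell types, 2 of 5 for leukocytes (10.9 to 13.3 CPM in sum), 1 of 4 for endothelium (CDH5, at 7.95, 19.2 and 3.01 CPM) and 1 of 6 for fibroblasts (COL1A1, at 11.3, 24.5 and 10.9 CPM) were listed. Their part in the results was not tested.

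Mitotic genes were abundant in H1975 cells with siNC and took a smaller share of both knockdown libraries. Together the 40 members had 8335 CPM in the siNC library, 5069 in that of siHHLA3-1 and 7133 in that of siHHLA3-3, which is 0.815%, 0.513% and 0.721% of all reads. The sum was thus 1.64-fold lower with siHHLA3-1 and 1.17-fold lower with siHHLA3-3. By the authors' TPM, which allow levels to be compared between genes, the median member stood at 110 TPM with siNC, 71.7 with siHHLA3-1 and 94.1 with siHHLA3-3. UBE2C, the ubiquitin-conjugating enzyme of the APC/C, was the highest member in each library, at 596, 400 and 606 TPM. CDC25C was the lowest with siNC and with siHHLA3-1, at 30.2 and 18.7 TPM, and CDCA3 the lowest with siHHLA3-3, at 23.9 TPM.

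**Figure D2:**
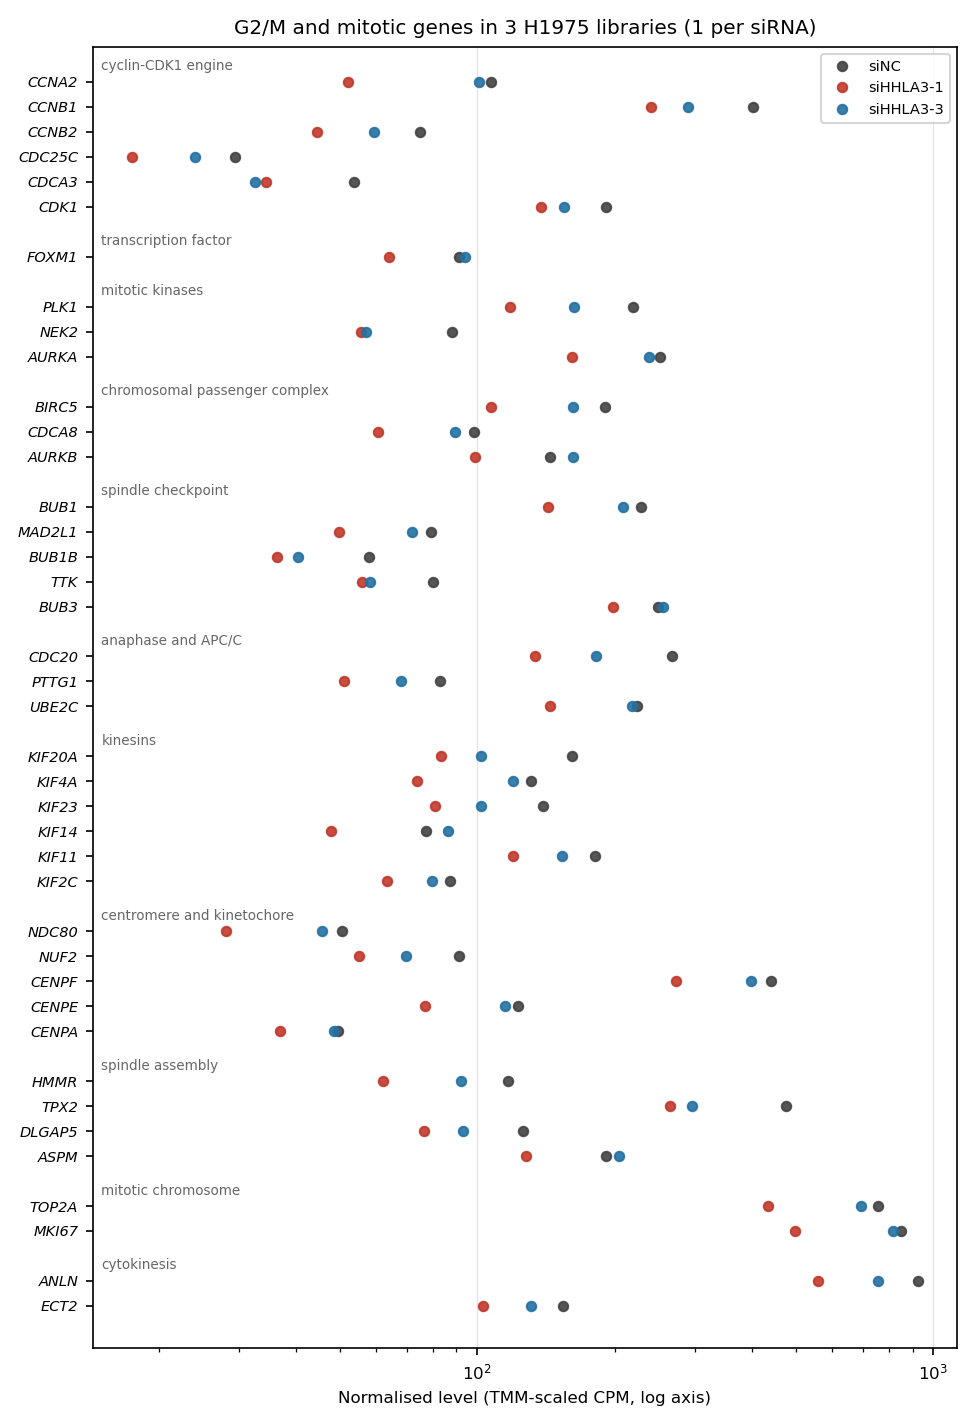
Level of each of the 40 members (rows, grouped by function) in the siNC, siHHLA3-1 and siHHLA3-3 libraries, as TMM-scaled CPM on a log axis. Each point is 1 library, and the siHHLA3-1 point lies left of the siNC point in every row.

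With siHHLA3-1 the whole set was lower and in a narrow band. On the log2(CPM + 1) scale, used for all log2 ratios here, the ratios to siNC ran from -1.02 to -0.33 with a median of -0.69, with quartiles of -0.79 and -0.62. The median of all 13879 genes above the filter was -0.01. All 40 members were below 0, where 51.8% of all genes were, and for all 40 the whole counting interval of the ratio lay below 1, as it did for 32.6% of all genes. At least 1.5-fold lower were 31 of the 40 members, against 3.34% of all genes, and 1 was at least 2-fold lower, against 0.382%. Scaling to the sum of 16 housekeeping genes moved the median of all genes to 0.16. On that scale all 40 were again below 0, against 28.3% of all genes. There 11 were at least 1.5-fold lower, and 0 were 2-fold lower, against 19 of 13886 genes. The share of all genes at least 1.5-fold lower was not computed on that scale. With TMM scaling none was 2-fold higher, against 0.973% of all genes. The 9 that did not reach 1.5-fold were CDK1, FOXM1, AURKB, BUB3, TTK, KIF2C, CENPA, ASPM and ECT2.

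With siHHLA3-3 the differences were smaller and more spread. The ratios to siNC ran from -0.70 to 0.17 with a median of -0.23, again beside -0.01 for all genes. Below 0 were 35 of the 40 members, 33 with library totals alone, and 22 under the housekeeping scaling, which moved the median of all genes from -0.01 to 0.13. Relative to that median, 35 members were again below. The share below 0 among all genes was 51.5%, with 44.8% for library totals alone and 32.0% under the housekeeping scaling. The whole interval lay below 1 for 32 members, against 30.6% of all genes. Only CDCA3, TPX2, KIF20A and NEK2 were at least 1.5-fold lower, 4 of 40 against 5.57% of all genes, and 0 members were 2-fold lower, against 1.48%, or 2-fold higher, against 0.807%. Above 0 were AURKB, KIF14, ASPM, FOXM1 and BUB3.

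Both comparisons use the same siNC library, so their values are given side by side and not as support for each other. The comparison of siHHLA3-1 with siHHLA3-3 does not use it. There the median ratio was -0.44 and 39 of 40 members were below 0, against 50.4% of all genes. The whole interval lay below 1 for 37 members, against 31.6%. The exceptions were CDCA3, at 1.05-fold (0.966 to 1.15), NEK2, at 0.974-fold (0.911 to 1.04), and TTK, at 0.958-fold (0.897 to 1.02), whose intervals all include 1. At least 1.5-fold lower were 10 members, against 4.40% of all genes, namely CCNA2, KIF14, MKI67, AURKB, KIF4A, NDC80, TOP2A, ASPM, BIRC5 and UBE2C. No member was 2-fold lower, against 0.757% of all genes, or 2-fold higher, against 2.12%.

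**Figure D3:**
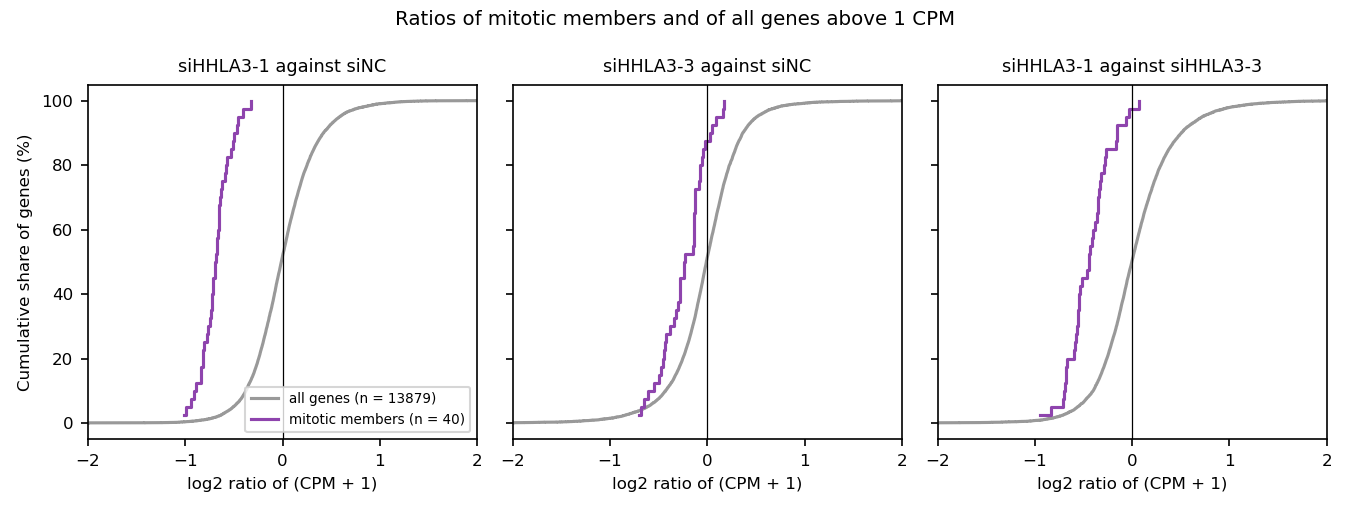
Cumulative share of genes (y axis, %) by log2 ratio of CPM + 1 (x axis) in each of the 3 comparisons, for the 40 members and for the 13879 genes above the filter. Except at the lowest ratios, the curve of the members lies left of that of all genes, furthest for siHHLA3-1 against siNC, where all 40 are below 0.

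The cyclins and CDK1 regulators were taken first. CCNA2, which pairs with CDK1 and CDK2 in S phase and G2, had 107 CPM in the siNC library, 52.1 in the siHHLA3-1 library and 101 in the siHHLA3-3 library. It was the only member 2-fold lower, at 2.04-fold with siHHLA3-1 (1.93 to 2.16), while its siHHLA3-3 level lay within counting error of siNC (0.952-fold, 0.905 to 1.00). The interval includes 2-fold, and CCNA2 did not reach 2-fold with library totals alone, the housekeeping sum, the deposited TPM or the deposited FPKM. Its 3' UTR carries the 7-base sequence CAGAATG, which is taken up after the members. CCNB1, the main mitotic cyclin, stood at 403, 240 and 290 CPM in the order siNC, siHHLA3-1 and siHHLA3-3, which is kept below. That is 1.68-fold lower (1.63 to 1.72) with siHHLA3-1 and 1.39-fold lower (1.35 to 1.43) with siHHLA3-3.

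CCNB2, the other B-type cyclin measured, stood at 74.7, 44.6 and 59.5 CPM (1.68-fold and 1.26-fold lower). CDK1, the kinase they activate, differed less, at 192, 138 and 155 CPM (1.39-fold and 1.24-fold lower). CDC25C, the phosphatase that removes the inhibitory phosphates from CDK1, stood at 29.4, 17.5 and 24.0 CPM. For these 3 genes siNC was the highest library and siHHLA3-1 the lowest. CDCA3, an adaptor for the destruction of the CDK1 inhibitor WEE1, had another order, at 53.6, 34.4 and 32.6 CPM, and was 1.56-fold lower with siHHLA3-1 and 1.64-fold (1.52 to 1.79) lower with siHHLA3-3. WEE1 itself stood at 64.6, 61.0 and 67.4 CPM and carries CAGAATG.

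FOXM1, the transcription factor of the G2/M genes, was measured at 91.0, 64.0 and 94.1 CPM. With siHHLA3-1 its level was 0.704 of that with siNC (0.666 to 0.744), and it was within counting error of siNC with siHHLA3-3 (1.03-fold, 0.981 to 1.09). Part of its exons, 15.9% of the bases in GENCODE release 29, is shared with ITFG2 on the opposite strand, and the use of strand in the counting was not given in the sources used here. ITFG2 had 221 to 291 counts a library, against 2274 to 2918 for FOXM1.

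Of the mitotic kinases, PLK1, which drives mitotic entry and spindle assembly, stood at 219, 118 and 163 CPM, or 1.86-fold (1.79 to 1.93) and 1.34-fold (1.29 to 1.39) lower. AURKA, the kinase of the spindle poles, stood at 251, 161 and 238 CPM. Its siHHLA3-3 level was thus close to siNC, 1.06-fold lower (1.02 to 1.09). NEK2, which splits the centrosomes, stood at 87.9, 55.6 and 57.1 CPM, nearly the same with both siRNAs.

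The chromosomal passenger complex corrects faulty attachments of chromosomes. Its kinase AURKB stood at 144, 98.9 and 162 CPM, 1.45-fold lower (1.39 to 1.52) with siHHLA3-1 and 1.13-fold higher (1.08 to 1.18) with siHHLA3-3. That was the highest ratio of any member with siHHLA3-3. BIRC5 (survivin), which brings the complex to centromeres, stood at 191, 107 and 162 CPM, and CDCA8 (borealin) at 98.6, 60.5 and 89.5 CPM. Both were lowest with siHHLA3-1 and, unlike AURKB, below siNC with siHHLA3-3.

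The spindle checkpoint genes split in the siHHLA3-3 library. TTK, the kinase that starts checkpoint signalling, stood at 80.0, 55.9 and 58.3 CPM, and BUB1B (BubR1), part of the inhibitor of CDC20, at 57.8, 36.4 and 40.5 CPM. These were similarly low with both siRNAs. BUB1 stood at 229, 143 and 209 CPM and MAD2L1 (MAD2) at 79.2, 49.8 and 71.9 CPM, with siHHLA3-3 nearer to siNC. BUB3, which also has a role outside mitosis in splicing, differed least of all members with siHHLA3-1, at 249, 198 and 255 CPM (1.26-fold lower, 1.22 to 1.30).

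For the anaphase genes, CDC20, the activator of the APC/C, stood at 267, 134 and 182 CPM, 1.99-fold (1.92 to 2.06) and 1.46-fold (1.41 to 1.52) lower. UBE2C stood at 224, 144 and 218 CPM, with siHHLA3-3 within counting error of siNC (0.973-fold, 0.940 to 1.01). PTTG1 (securin), the inhibitor of separase, stood at 82.7, 50.9 and 68.1 CPM. PTTG1 and KIF4A have near-identical copies elsewhere in the genome, so their values are uncertain to the extent that reads were shared. Exons are also shared by PLK1 with AC008870.3 (11.6% of bases, opposite strand) and by BUB1B with BUB1B-PAK6 (10.2%, same strand). The same holds for CCNA2 with EXOSC9 (9.08% of bases), CDCA3 with GNB3 (9.71%) and CDC25C with FAM53C (8.78%), each on the opposite strand. CENPA shares exons with SLC35F6 (6.96%) on the same strand. FAM53C had 2589, 3560 and 2270 counts, against 943, 622 and 654 for CDC25C. SLC35F6 had 3330, 4043 and 2872 counts, against 1584, 1310 and 1321 for CENPA. How far reads of these neighbours entered the members' values was not tested. Smaller overlaps, such as KIF20A with BRD8 (3.34%), are not all given. A listed copy of CDC20, CDC20P1, had 57, 29 and 25 counts, few beside the 4765 to 8569 of CDC20.

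**Figure D4:**
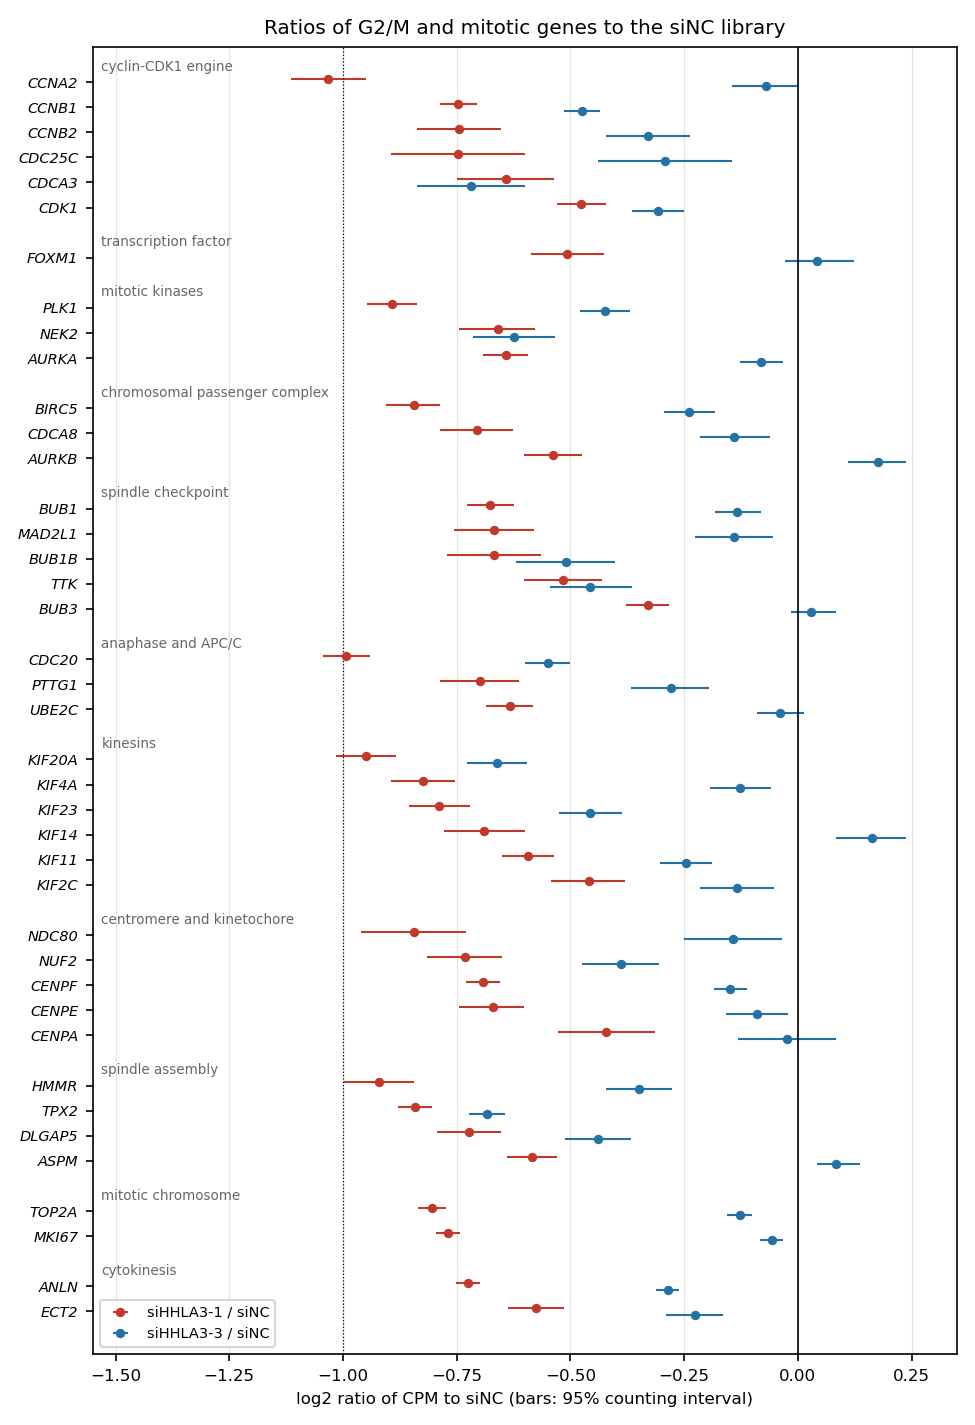
Log2 ratio of CPM to siNC (x axis) for each member (rows, by function) with siHHLA3-1 and siHHLA3-3, with 95% counting intervals as bars, and a dotted line at 2-fold lower. The siHHLA3-1 points lie between about 1.26-fold and 2.04-fold lower, and those of siHHLA3-3 reach from CDCA3, lowest, to AURKB, highest.

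All 6 kinesins were lower with siHHLA3-1, with a median ratio of -0.73, and had a median of -0.19 with siHHLA3-3. KIF20A, which acts in the central spindle and cytokinesis, stood at 161, 83.4 and 102 CPM, 1.93-fold (1.84 to 2.02) and 1.58-fold (1.51 to 1.66) lower. KIF23, of the centralspindlin complex, stood at 139, 80.7 and 102 CPM. KIF4A, which sets spindle midzone length, stood at 131, 73.8 and 120 CPM, and KIF14, a kinesin of late cytokinesis, at 77.0, 47.8 and 86.2 CPM. The siHHLA3-3 library was thus low for KIF20A and KIF23, near siNC for KIF4A and above siNC for KIF14 (1.12-fold, 1.06 to 1.18). KIF11, the motor that separates the spindle poles, and KIF2C, a microtubule depolymerase, stood at 181, 120 and 153 CPM and at 87.3, 63.5 and 79.7 CPM.

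The 5 centromere and kinetochore genes had median ratios of -0.69 and -0.14. NDC80 and NUF2, partners in the complex that holds microtubules, stood at 50.4, 28.1 and 45.7 CPM and at 91.3, 54.9 and 69.7 CPM. CENPF stood at 441, 273 and 398 CPM and the motor CENPE at 123, 76.9 and 115 CPM. CENPA, the histone H3 variant of centromeres, differed less, at 49.4, 36.9 and 48.5 CPM, with siHHLA3-3 within counting error of siNC (0.983-fold, 0.913 to 1.06).

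The 4 spindle assembly genes lay far apart in the siHHLA3-3 library. TPX2, which activates AURKA and nucleates microtubules, stood at 474, 264 and 295 CPM, 1.79-fold (1.75 to 1.84) and 1.61-fold (1.56 to 1.65) lower. HMMR stood at 117, 62.1 and 92.2 CPM, and DLGAP5 (HURP), a stabiliser of kinetochore fibres, at 126, 76.5 and 93.1 CPM. ASPM, a protein of the spindle poles, stood at 192, 128 and 205 CPM, with a ratio of -0.58 to siNC with siHHLA3-1 and 1.06-fold higher (1.03 to 1.10) with siHHLA3-3.

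The most deeply counted members gave the narrowest intervals. MKI67, the proliferation antigen Ki-67 that coats mitotic chromosomes, stood at 848, 498 and 815 CPM (27212, 17684 and 22187 counts), 1.70-fold (1.67 to 1.74) and 1.04-fold (1.02 to 1.06) lower. TOP2A, the topoisomerase that untangles sister chromatids, stood at 758, 434 and 694 CPM, 1.75-fold (1.71 to 1.78) and 1.09-fold (1.07 to 1.11) lower. For both, siHHLA3-3 lay close to siNC and siHHLA3-1 far below. Of the cytokinesis genes, ANLN (anillin), a scaffold of the contractile ring, stood at 924, 558 and 758 CPM, and ECT2, the activator of RhoA in the ring, at 154, 103 and 131 CPM. ANLN was 1.65-fold and 1.22-fold lower.

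Members with and without these promoter letters had similar medians. The 24 members with a CHR hexamer had medians of -0.70 for siHHLA3-1 and -0.23 for siHHLA3-3, and the 9 without one -0.69 and -0.28. The 26 with CCAAT had medians of -0.69 and -0.23 and the 7 without -0.72 and -0.28. Ranges overlapped in every case, and with 9 and 7 members these medians are coarse.

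The 7-base sequences CAGAATG and GTGAACT were chosen as the leading ones for siHHLA3-1 and siHHLA3-3 in an earlier scan of these same ratios. Their shares among the members and the medians of carriers are therefore a description and not support. All 40 members had a 3' UTR to search in GENCODE release 29. CAGAATG was carried by 7 members (17.5%), against 18.1% of the 11783 genes searched, namely CCNA2, CDC25C, CDCA3, BIRC5, BUB3, MAD2L1 and MKI67. The carriers had a median ratio of -0.72 with siHHLA3-1, and the other members -0.69. GTGAACT was carried by CDCA3 and BIRC5, 5.00% of members against 12.3% of genes, with a median of -0.47 with siHHLA3-3 against -0.19 for the others. That median rests on 2 genes, at -0.70 (CDCA3) and -0.24 (BIRC5), and both also carry CAGAATG. For the 33 members with neither sequence the medians were -0.69 and -0.24.

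Genes around the members were read from lists without the members themselves. Of 64 other mitotic genes, 62 were below 0 with siHHLA3-1 (median -0.53) and 52 with siHHLA3-3 (median -0.12, or 0.02 with 30 below 0 under the housekeeping scaling). Of all genes, 51.8% were below 0 with siHHLA3-1 and 51.5% with siHHLA3-3, beside these counts and those of the lists below. Under the housekeeping scaling these shares were 28.3% and 32.0%. At least 1.5-fold lower were 25 with siHHLA3-1, against 3.34% of all genes, and 6 with siHHLA3-3, against 5.57%. LMNB1, the nuclear lamin B1, stood at 209, 132 and 77.3 CPM, 2.71-fold lower (2.58 to 2.84) with siHHLA3-3. It was the 1 gene of the list 2-fold lower, against 1.48% of all genes with siHHLA3-3. RACGAP1, the partner of KIF23 in centralspindlin, stood at 333, 174 and 168 CPM, or 1.92-fold (1.86 to 1.98) and 1.98-fold (1.91 to 2.05) lower, and the spindle protein SPAG5 at 141, 79.4 and 80.1 CPM. These 3 were as low or lower with siHHLA3-3 than with siHHLA3-1, unlike most members. SKA2 and PMF1, highest of the list by mean ratio, stood at 67.9, 64.6 and 76.8 CPM and at 10.2, 10.3 and 10.7 CPM.

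Condensin and cohesin genes had medians of -0.35 and -0.14 over 16 genes, the latter 0.01 under the housekeeping scaling. All 16 were below 0 with siHHLA3-1 (12 under that scaling) and 12 with siHHLA3-3 (6 under it). The cohesin subunits RAD21 and SMC1A stood at 360, 258 and 197 CPM and at 319, 262 and 186 CPM, and both carry CAGAATG and GTGAACT. STAG1 and PDS5A carry CAGAATG, with ratios of -0.28 and -0.13 with siHHLA3-1. STAG2 and PDS5B carry GTGAACT, with ratios of -0.14 and -0.01 with siHHLA3-3. The condensin subunit NCAPH had ratios of -0.63 and -0.34. The 12 tubulin genes had medians of -0.39 and -0.24, or -0.20 and -0.10 under that scaling. TUBB2A stood at 36.2, 32.0 and 10.3 CPM and carries GTGAACT. TUBB4B, a major beta tubulin that also carries GTGAACT, stood at 1105, 720 and 797 CPM. The gamma tubulin TUBG1, which nucleates microtubules, had ratios of -0.74 and -0.38.

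The machinery that the members act through had medians nearer to 0, with single genes far from it in both directions. Core APC/C subunits and their partners had medians of -0.23 and 0.01 over 17 genes, or -0.04 and 0.14 under the housekeeping scaling, and 15 of the 17 were below 0 with siHHLA3-1 (10 under that scaling). Of the 17, 1 was 2-fold lower with siHHLA3-1, against 0.382% of all genes. This was CDC27, at 147, 69.5 and 136 CPM, and it carries CAGAATG. So do CDC23, ANAPC1, ANAPC7, CDC26 and ANAPC2, with ratios of -0.61, -0.37, -0.33, -0.20 and 0.13 with siHHLA3-1. UBE2S, which extends ubiquitin chains on the APC/C, had ratios of -0.48 and -0.15, and ANAPC11 of -0.34 and -0.46. Among 10 genes of mitotic entry control the medians were -0.12 and 0.11, or 0.07 and 0.25 under the housekeeping scaling. PPP2CA, the catalytic subunit of the phosphatase PP2A that opposes CDK1, stood at 192, 157 and 52.0 CPM. It was 3.69-fold lower (3.48 to 3.91) with siHHLA3-3 and carries both 7-base sequences. WEE1 and PPP2R2A carry CAGAATG, with ratios of -0.08 and -0.16 with siHHLA3-1. CDC25A, a CDK-activating phosphatase, stood at 29.4, 33.5 and 62.7 CPM, 2.13-fold higher (1.97 to 2.31) with siHHLA3-3. The checkpoint kinase CHEK2 had ratios of -0.17 and -0.93.

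Regulators of cell cycle transcription were read from a list of 21 genes named for MuvB, MYB and DREAM. The list is mixed and also holds RB1, E2F1, E2F2, E2F3, E2F7, E2F8 and the NF-Y genes NFYA, NFYB and NFYC. The medians of the whole list were -0.16 and 0.06, or 0.02 and 0.20 under the housekeeping scaling. MYBL2 (B-MYB) stood at 341, 299 and 451 CPM, 1.14-fold lower (1.11 to 1.17) with siHHLA3-1 and 1.32-fold higher (1.29 to 1.36) with siHHLA3-3. The MuvB subunits LIN9 and LIN54, the latter the one that binds the CHR, stood at 18.5, 13.7 and 16.8 CPM and at 28.4, 26.0 and 30.8 CPM. The repressor E2F4 of the DREAM complex had ratios of -0.16 and 0.10. RB1 stood at 48.3, 27.4 and 45.4 CPM and RBL2 (p130) at 56.3, 64.6 and 26.8 CPM. RB1 carries CAGAATG and RBL2 carries GTGAACT. E2F3 carries both and had ratios of 0.08 and 0.04, and LIN52 carries GTGAACT, with ratios of 0.24 and 0.06. Carriers in these lists lay in both directions and were not counted.

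For DNA replication and G1/S, 43 of 44 genes were below 0 with siHHLA3-1 (median -0.52), against 51.8% of all genes. With siHHLA3-3, 13 of 44 were below 0 (median 0.11), against 51.5%. Under the housekeeping scaling the medians were -0.33 and 0.25. With TMM scaling the siHHLA3-3 median was -0.23 for the mitotic members, and this difference between lists was not tested. PCNA, the replication clamp, stood at 279, 215 and 336 CPM, with ratios of -0.37 and 0.27. The clamp loader subunit RFC3 had ratios of -0.57 and -0.80, and the polymerase gene POLE of -0.15 and 0.52. Between the siHHLA3 libraries, replication genes had a median of -0.59 and mitotic members of -0.44.

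CDK inhibitors and p53 targets were read because p21 (CDKN1A) lowers G2/M genes through DREAM. CDKN1A stood at 156, 167 and 208 CPM, with ratios of 0.09 and 0.42. Over 6 CDK inhibitors the medians were 0.07 and -0.22, or 0.26 and -0.07 under the housekeeping scaling. Over 19 p53 targets, with CDKN1A itself among them, they were 0.01 and 0.17, or 0.19 and 0.32 under that scaling. Targets of p21 were not read as a list of their own. Of those 19, 3 were 2-fold higher with siHHLA3-1 (BBC3, BTG2 and TP53INP1), against 0.973% of all genes, and 1 with siHHLA3-3 (SESN2), against 0.807%. BBC3 (PUMA) stood at 16.5, 43.2 and 29.5 CPM and SESN2, also a stress response gene, at 31.2, 53.8 and 82.9 CPM. Of other genes that p53 drives, CCNG1 had ratios of -0.84 and 0.18, and MDM2 of 0.11 and -0.04. MDM2 and TP53INP1 carry CAGAATG, and TP53INP1 had ratios of 1.06 and -0.56.

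**Figure D5:**
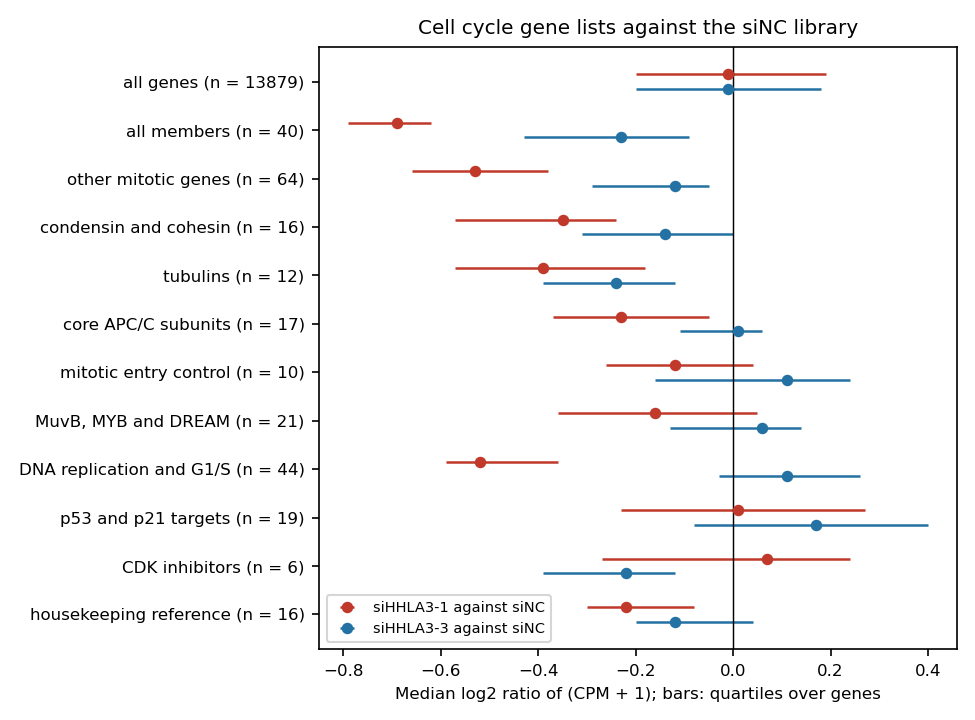
Median log2 ratio of CPM + 1 to siNC (x axis) for the 40 members, the other gene lists and all genes above the filter (rows), with siHHLA3-1 and siHHLA3-3. Bars span the quartiles, and the replication and G1/S list lies at -0.52 with siHHLA3-1 and at 0.11 with siHHLA3-3. The row of p53 and p21 targets holds p53 targets, with CDKN1A (p21) itself among them.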

How the data were processed

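RNA from 3 libraries (siNC, siHHLA3-1 and siHHLA3-3) was compared. The authors deposited 1 table with raw counts per gene, and with CPM, FPKM and TPM per the file headers. Per the submitters' processing notes, hg19 was the build, and Bowtie2, TopHat2, HISAT and HISAT2 were among the tools. Not given in the sources used here were the counting program, the annotation and the strand setting.

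Library totals were recovered from the deposited counts and CPM, and 0.305% to 0.355% of reads fell on unlisted genes. Counts were scaled with TMM factors (edgeR 4.0.16, R 4.3.3) of 0.978, 1.01 and 1.01. Log2 ratios carry a pseudocount of 1, genes averaging under 1 CPM were left out, and folds are ratios of CPM without it. Levels have exact Poisson and ratios exact binomial 95% intervals. With 1 library a group no test was made and no p-value computed. Alternatives included DESeq2 1.42.0 size factors. The members, lists and thresholds were chosen with earlier results of these data known. All 42 members were to be named, with up to 3 lowest and 2 highest genes of other lists by mean ratio (at least 5 CPM), and CDKN1A, MYBL2, E2F4, LIN9, LIN54, WEE1, PCNA and HHLA3. Other genes named, such as BTG2, TP53INP1 and MDM2, were chosen after their values were seen. Ratios and intervals were tested on simulated data in Python 3.11.15.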

Additional observations from a re-analysis of the deposited data

How the results depend on the processing

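No paired analysis was possible because each group holds 1 library, so leaving out a replicate was not possible either. Setting the threshold at 1.5-fold gave 31 members with siHHLA3-1, 4 with siHHLA3-3 and 10 for siHHLA3-1 against siHHLA3-3. The shares of all genes were 3.34%, 5.57% and 4.40%. At 2-fold there were 1, 0 and 0 members, against 0.382%, 1.48% and 0.757% of all genes. CCNA2 did not reach 2-fold, leaving 0 members, with library totals alone, the housekeeping sum, the deposited TPM or the deposited FPKM, and it was left out with the carriers of either 7-mer, which also left 0. Scaling to the housekeeping sum moved the median of all genes to 0.16 with siHHLA3-1 and 0.13 with siHHLA3-3. On that scale the members' medians were -0.50 and -0.08, or -0.66 and -0.21 relative to all genes. There 11 and 0 members were at least 1.5-fold lower, and the share of all genes at that threshold was not computed on that scale. Below 0 with siHHLA3-3 were 22 members, against 32.0% of all genes. The deposited FPKM gave a median of -0.61 with siHHLA3-1. Without the carriers of either 7-mer, 33 members remained. Chosen after seeing the data were the spacing of CCAAT and CHR and the scaling of the other lists. Depth limited no member, since each had at least 622 counts, and the missing replicates limit every comparison.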
